A study of Mus musculus with 16 samples.

Results

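The genes described here are 10 stress defense genes read from the expression of dispersed mouse islet cells: Nqo1, Hmox1, Gclc, Gclm, Srxn1, Txnrd1, Prdx1 and Sod2, which encode antioxidant enzymes, and the metallothioneins Mt1 and Mt2. They were chosen by name rather than by a measured value, although earlier results of these data were known. They are 10 of the 25105 genes listed. All 10 were above 1 RPKM (reads per kilobase of gene and per mega reads) in enough libraries to be tested in every comparison. The RNA came from islet cells of adult Grp78 flox/flox mice, in which Cre recombinase removes part of the gene for the chaperone GRP78. All groups carried these alleles, received an adenovirus and were kept in 15 mM glucose for 72 h. The groups were Ad-LacZ with DMSO, Ad-Cre with DMSO, Ad-LacZ + JNK Inh and Ad-Cre + JNK Inh, where JNK Inh is the covalent pan-JNK inhibitor JNK-IN-8, added at the start. Each group held 1 library from each of 4 preparations, labeled F1, M1, M2 and F2 for sex and number, and the labels give 2 animal numbers for each preparation, so each may be a pool of animals. The virus could enter any islet cell type, so each value is an average over all cells of a culture. In such bulk RNA, a change in the share of a cell type and a change in RNA per cell cannot be told apart.

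NRF2, encoded by Nfe2l2, is a transcription factor that KEAP1 and the CUL3 ubiquitin ligase mark for degradation. Oxidants and electrophiles modify KEAP1, and NRF2 then enters the nucleus, pairs with a small MAF protein and binds antioxidant response elements (ARE) near genes for quinone reduction, glutathione synthesis, thiol repair and heme breakdown. BACH1 competes for such sites, and the autophagy receptor p62, encoded by Sqstm1, can pull KEAP1 away from NRF2. Metallothioneins bind zinc and copper and are induced by metals through the factor MTF1 at metal response elements (MRE), and also by glucocorticoids. Beta cells are known for low levels of some peroxide-removing enzymes and for the large amount of zinc they store with insulin.

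The promoters of 4 of the genes are shown because these genes moved apart from each other: Nqo1 fell, Prdx1 rose, and Mt1 and Mt2 lie side by side. The sequences are from RefSeq (GRCm38.p6), run 5′ to 3′ on the strand of the gene, and span 250 bases before the gene's start to 50 after it. Capitals mark the ARE core TGACNNNGC and the MRE core, TGCACNC or TGCGCNC, each searched on both strands. The windows are chr8:107403156-107403455 (minus strand) for Nqo1, chr4:116685349-116685648 (plus) for Prdx1, chr8:94178839-94179138 (plus) for Mt1 and chr8:94172368-94172667 (plus) for Mt2.
Nqo1: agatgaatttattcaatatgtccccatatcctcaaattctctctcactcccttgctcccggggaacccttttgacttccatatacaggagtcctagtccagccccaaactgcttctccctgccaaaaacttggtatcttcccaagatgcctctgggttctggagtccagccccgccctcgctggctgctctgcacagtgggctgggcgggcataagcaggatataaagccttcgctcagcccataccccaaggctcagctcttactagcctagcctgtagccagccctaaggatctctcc
Prdx1: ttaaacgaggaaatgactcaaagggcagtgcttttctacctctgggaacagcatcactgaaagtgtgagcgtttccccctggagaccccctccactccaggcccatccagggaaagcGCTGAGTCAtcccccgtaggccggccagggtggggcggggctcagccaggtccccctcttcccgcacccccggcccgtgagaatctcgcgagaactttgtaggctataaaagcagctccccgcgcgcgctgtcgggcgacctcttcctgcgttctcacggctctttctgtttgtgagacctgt
Mt1: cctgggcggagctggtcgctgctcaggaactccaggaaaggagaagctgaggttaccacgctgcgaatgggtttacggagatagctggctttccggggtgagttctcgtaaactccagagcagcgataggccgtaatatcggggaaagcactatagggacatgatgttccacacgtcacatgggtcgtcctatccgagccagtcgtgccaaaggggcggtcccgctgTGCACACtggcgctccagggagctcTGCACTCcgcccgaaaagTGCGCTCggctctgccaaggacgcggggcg
Mt2: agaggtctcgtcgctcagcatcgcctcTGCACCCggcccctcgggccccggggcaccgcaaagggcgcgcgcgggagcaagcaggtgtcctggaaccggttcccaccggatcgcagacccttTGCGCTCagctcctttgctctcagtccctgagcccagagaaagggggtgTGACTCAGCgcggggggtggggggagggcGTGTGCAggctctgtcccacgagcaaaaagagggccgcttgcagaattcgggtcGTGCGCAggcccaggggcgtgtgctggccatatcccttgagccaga
The table of promoters matched 8 of the 10 genes. An ARE core was found in 5 of them: Gclm, Srxn1, Txnrd1 (in 1 of its 3 promoters), Prdx1 and Mt2, where it begins at base -79 from the start. The windows of Nqo1, Sod2 and Mt1 did not hold these letters. Sequence outside the windows was not searched, so an ARE core further away would be missed. Of 32851 mouse promoter windows of the same length, 12.4% held an ARE core. The MRE core was found in 4 of the 8 genes: 4 times in Mt2, 3 times in Mt1, 3 times in Gclm and 1 time in Srxn1, while 25.7% of all windows held at least 1 and 0.517% at least 4. In Gclm 1 match of each motif overlapped. A match of letters is a description of the sequence and not a binding site.

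The libraries had the expression of islet cells: all 9 beta cell markers were above 0 in each of the 16 libraries, with a summed level of 33252 to 84724 RPKM. Alpha cell markers summed to 10981 to 27225 RPKM, delta cell markers to 1134 to 6831 RPKM and the PP cell marker Ppy to 1147 to 2892 RPKM. Endothelial markers (16.3 to 63.8 RPKM), acinar markers (1.82 to 10.9 RPKM) and Schwann cell markers (1.27 to 2.81 RPKM) were low, and duct markers summed to 167 to 962 RPKM. Depth, read from the steps between low values, was 7.7 to 25.3 M (mega) reads (median 21.9 M). The lowest was the Ad-Cre + JNK Inh library of F2. The prefix and the ending of its column name differ from those of all other libraries, and the labels do not say what these parts mean. Hspa5, the gene targeted by Cre, was at 395 to 483 RPKM in the 4 Ad-LacZ libraries and at 1107 to 1598 RPKM in the 4 Ad-Cre libraries, and at 348 to 461 and 1202 to 1660.5 RPKM with the inhibitor. The direction is opposite to that a knockdown label implies. Values per gene take in reads of all exons, so they do not measure the deletion, and the study's assay of the knockdown was made on parallel aliquots that are not analysed here. Groups were kept as labeled, and directions below are those of the libraries labeled Ad-Cre.

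In Ad-LacZ cells the 10 genes spanned a narrow range per length. The highest was the peroxide-removing peroxiredoxin Prdx1 (64.7 ± 6.54 RPKM, SD, n = 4), followed by Mt2 (56.5 ± 18.6), Srxn1 (51.2 ± 6.14), Txnrd1 (45.6 ± 4.95), Mt1 (42.5 ± 7.03), Nqo1 (41.4 ± 7.47) and Hmox1 (41.1 ± 18.0). The ranges of each of these neighbors in the order overlapped. Sod2 (23.4 ± 1.56), Gclc (15.8 ± 1.98) and Gclm (13.8 ± 0.455) lay below them. Sod2 was above every Gclc value, while Gclc and Gclm overlapped. In Ad-Cre cells the order changed: Hmox1 (104 ± 29.5 RPKM) and Prdx1 (102.5 ± 15.7) were now the highest and overlapped each other, and Nqo1 (14.6 ± 2.61) had joined Gclm (14.4 ± 0.588) as the lowest.

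**Figure D1:**
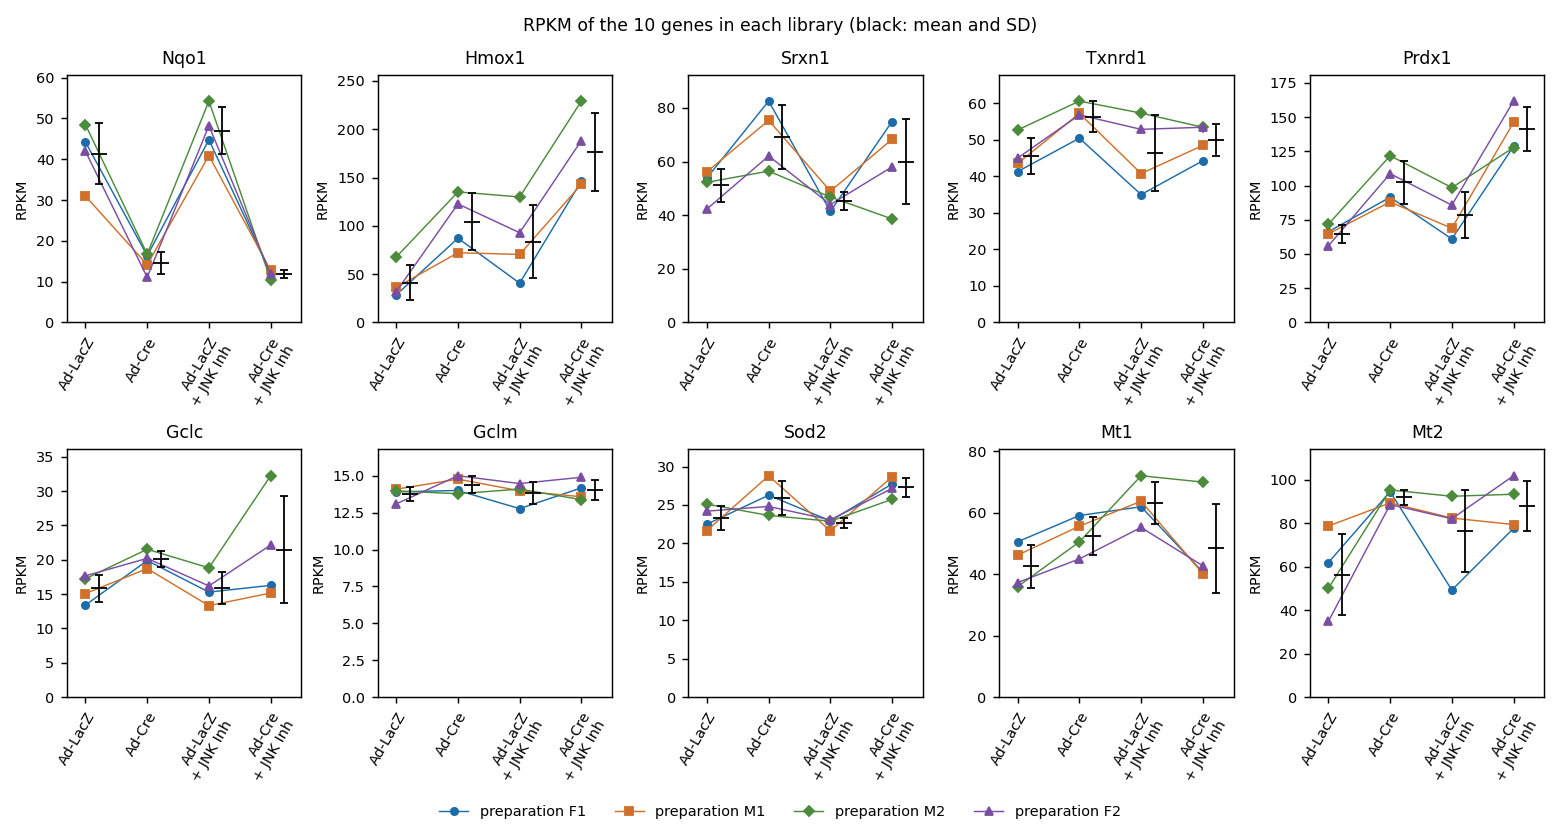
RPKM as deposited (vertical axes, from 0) of the 10 genes in the 4 groups. Colored points are libraries, lines join the 4 libraries of 1 preparation, and black marks are the mean and SD of a group (n = 4). Nqo1 is at 10.4 to 16.7 RPKM in the 8 libraries labeled Ad-Cre and at 30.9 to 54.3 RPKM in the 8 labeled Ad-LacZ, Hmox1 goes the other way within each preparation, and Gclm stays between 12.8 and 15.0 RPKM in all 16.

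Comparing Ad-Cre with Ad-LacZ asks which of these genes differ when the GRP78 gene is targeted without the inhibitor. The response was divided: Nqo1 fell to 0.367 times its Ad-LacZ level while Hmox1 rose 2.56-fold and Prdx1 1.56-fold. These 3 of the 10 genes passed a Benjamini-Hochberg adjusted p under 0.05 from limma, 2 higher and 1 lower, and over all 11590 genes tested 7.29% were called higher and 9.58% lower. The median log2 fold change of the 10 genes was 0.31, against -0.01 for all genes tested. With the preparation as a block, which compares libraries within the same preparation, 8 of the 10 were called, 7 higher and 1 lower, against 15.7% of all genes higher and 18.7% lower. Gclm and Sod2 were not called in either fit. The study's thresholds are a fold change above 1.5 and a p below 0.05, and its methods do not say which p is meant. With the p unadjusted, 4 of the 10 were called, against 10.3% of all genes, the added gene being Mt2. The values of Ad-Cre and Ad-LacZ libraries did not overlap for 6 of the 10 genes, against 27.7% of all genes.

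Nqo1 (ENSMUSG00000003849, GRCm38 chr8:107388225-107403206, minus strand) encodes the quinone reductase NQO1 and is a standard readout of NRF2. It was at 44.2, 30.9, 48.5 and 41.9 RPKM in the Ad-LacZ libraries of F1, M1, M2 and F2, and at 16.3, 14.2, 16.7 and 11.1 RPKM in the Ad-Cre libraries. Every Ad-Cre library was below every Ad-LacZ library, with log2 fold changes of -1.33, -1.06, -1.47 and -1.92 by preparation. Their mean was -1.45 (SE 0.17, limma's adjusted p = 0.00197, or 0.000825 in the blocked fit). An exact two-sided permutation test that ignores the preparations gave p = 0.0286, the smallest p that 4 libraries against 4 allow. The sign is opposite to that of the other 9 genes, whose log2 fold changes lay between 0.05 and 1.36.

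Hmox1 (ENSMUSG00000005413, chr8:75093621-75100589, plus strand) encodes heme oxygenase-1, which breaks heme down to biliverdin, iron and carbon monoxide and is also abundant in macrophages. Its values in F1, M1, M2 and F2 were 28.5, 36.3, 67.7 and 31.9 RPKM with Ad-LacZ and 87.2, 72.1, 135 and 123 RPKM with Ad-Cre. The lowest Ad-Cre library stood above the highest Ad-LacZ library, M2 being the highest in both groups. The log2 fold change was 1.36 (SE 0.23, limma's adjusted p = 0.00802), and by preparation it was 1.64, 0.99, 0.98 and 1.81. Without replicate F2 the adjusted p was 0.0843 with a log2 fold change of 1.205.

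Markers of other cell types moved with some of these libraries. The 8 macrophage markers, all above 0 in each library, summed to 67.5 to 77.3 RPKM with Ad-LacZ and to 66.5, 87.0, 203 and 172 RPKM with Ad-Cre in F1, M1, M2 and F2. The sum is made up mostly of C1qa and Lyz2 (means of 31.1 and 29.5 RPKM with Ad-LacZ), so it hides weaker markers. As deposited, C1qb was at most 1.28 RPKM with Ad-LacZ and at least 1.66 RPKM with Ad-Cre. Adgre1 was at most 1.10 and at least 1.14 RPKM. Both were thus higher with Ad-Cre in F1 as well, where the sum was 67.5 and 66.5 RPKM, while the groups overlapped for the other markers. Of the 7 macrophage markers tested, C1qb (log2 fold change 1.11, limma's adjusted p = 0.027) was called, or 4 in the blocked fit, and the median was 0.71. Stellate and fibroblast markers summed to 23.6 to 108 RPKM with Ad-LacZ and to 21.8 to 683 RPKM with Ad-Cre, highest in M2, and 1 of 7 was at 0 in the F1 libraries of both groups. Of the beta cell markers all 9 had negative log2 fold changes (median -0.81) and 2 were called, or 6 in the blocked fit. The part of these shifts in the values of the 10 genes was not tested.

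**Figure D2:**
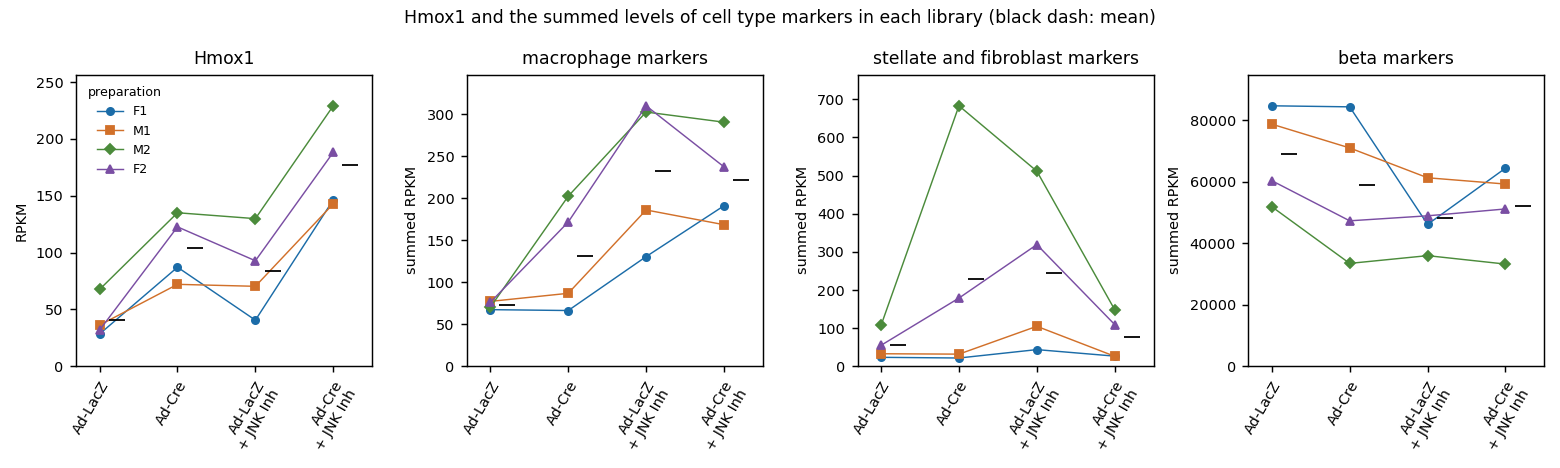
Hmox1 (RPKM, left) beside the summed RPKM of the macrophage, stellate and fibroblast, and beta cell markers in the 16 libraries by group. Colored points joined by lines are the 4 preparations and black dashes are group means. With Ad-Cre the macrophage sum spans 66.5 RPKM in F1 to 203 RPKM in M2. Hmox1 is above its Ad-LacZ value in all 4 preparations.

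Prdx1, Txnrd1 and Srxn1 work in a chain: PRDX1 removes hydrogen peroxide, thioredoxin and thioredoxin reductase 1 (Txnrd1) renew it, and sulfiredoxin (Srxn1) repairs it when it is over-oxidized. Prdx1 (ENSMUSG00000028691, chr4:116685544-116700822, plus strand) was at 66.3, 64.7, 71.8 and 56.0 RPKM with Ad-LacZ and at 91.5, 88.0, 122 and 109 RPKM with Ad-Cre. Every Ad-Cre library was above every Ad-LacZ library. Its log2 fold change was 0.64 (SE 0.11, limma's adjusted p = 0.0084), and the call was lost without replicate M1 (adjusted p = 0.051) or F2 (adjusted p = 0.0749). Transcripts of Prdx1 share 8.29% of their 50-base windows with transcripts of 39 other genes, so the authors' counting may have moved reads between them.

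Txnrd1 (ENSMUSG00000020250, chr10:82833951-82897712, plus strand) had 41.3, 43.5, 52.7 and 45.0 RPKM with Ad-LacZ and 50.4, 57.2, 60.6 and 56.8 RPKM with Ad-Cre. Each preparation was higher with Ad-Cre, although F1 with Ad-Cre lay below M2 with Ad-LacZ. The log2 fold change of 0.29 (SE 0.10) had a limma adjusted p of 0.0649, or 0.0385 in the blocked fit. Srxn1 (ENSMUSG00000032802, chr2:152105516-152111376, plus strand) had 53.9, 56.2, 52.3 and 42.3 RPKM with Ad-LacZ and 82.6, 75.4, 56.4 and 62.1 RPKM with Ad-Cre. As deposited the lowest Ad-Cre value was just above the highest Ad-LacZ value, while on the scaled values the groups overlapped (exact two-sided permutation p = 0.143), and the difference was small in M2 and larger in F1. Its log2 fold change was 0.41 (SE 0.20, limma's adjusted p = 0.185, or 0.0251 in the blocked fit).

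Glutamate-cysteine ligase makes the first step of glutathione synthesis and is a pair of a catalytic subunit (Gclc) and a modifier subunit (Gclm). Gclc (ENSMUSG00000032350, chr9:77754535-77794485, plus strand) was at 13.4, 15.1, 17.2 and 17.7 RPKM with Ad-LacZ and at 19.9, 18.7, 21.5 and 20.2 RPKM with Ad-Cre. The groups did not overlap, and the log2 fold change of 0.32 (SE 0.10) had a limma adjusted p of 0.0566, or 0.0418 in the blocked fit. Gclm (ENSMUSG00000028124, chr3:122245557-122270732, plus strand) was at 13.9, 14.1, 14.0 and 13.1 RPKM with Ad-LacZ and at 14.0, 14.8, 13.8 and 15.0 RPKM with Ad-Cre. The groups overlapped, with a log2 fold change of 0.05 (95% confidence interval -0.19 to 0.30, limma's adjusted p = 0.758). Gclm shares 3.92% of its 50-base windows with other genes.

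Sod2 encodes the manganese superoxide dismutase of mitochondria and is a target of NF-kB as well. Sod2 (ENSMUSG00000006818, chr17:13006846-13040063, plus strand) had 22.5, 21.7, 25.1 and 24.2 RPKM with Ad-LacZ and 26.3, 28.8, 23.6 and 24.8 RPKM with Ad-Cre. It was higher with Ad-Cre in F1 and M1 and lower, on the scaled values, in M2 and F2. The log2 fold change was 0.13 (95% confidence interval -0.16 to 0.43, limma's adjusted p = 0.505). Sod2 shares 21.045% of its 50-base windows with 202 other genes, the highest share among the 10.

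The metallothioneins Mt1 and Mt2 lie next to each other on chromosome 8 in the same orientation. Mt2 (ENSMUSG00000031762, chr8:94172664-94173568, plus strand) varied widely with Ad-LacZ, at 61.9, 78.8, 50.1 and 34.9 RPKM, and lay close together as deposited with Ad-Cre, at 94.7, 89.5, 95.4 and 88.7 RPKM. Scaled over the 16 libraries, the Ad-Cre values were further apart, at 102, 93.5, 81.6 and 80.7 RPKM. The groups did not overlap, and the log2 fold change of 0.75 (SE 0.24) had a limma adjusted p of 0.0642, or 0.0109 in the blocked fit. Mt1 (ENSMUSG00000031765, chr8:94179082-94180327, plus strand) was at 50.5, 46.2, 35.9 and 37.3 RPKM with Ad-LacZ and at 59.1, 55.6, 50.5 and 45.0 RPKM with Ad-Cre. It was higher in each of the 4 preparations although the groups overlapped. Its log2 fold change was 0.30 (SE 0.20, limma's adjusted p = 0.322, or 0.0401 in the blocked fit).

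The same comparison in the presence of the inhibitor, Ad-Cre + JNK Inh against Ad-LacZ + JNK Inh, shares no library with the first. It uses parallel cultures of the same 4 preparations, so it adds no new animals. It called the genes Hmox1 and Prdx1 higher and Nqo1 lower, 3 of 10 by limma's adjusted p, against 10.1% of 11598 genes higher and 10.5% lower. With the preparation as a block 4 of 10 were called, 3 higher and 1 lower, against 12.7% of all genes higher and 12.1% lower. With the fold change above 1.5 and the p unadjusted 3 were called, against 17.8% of all genes. The groups did not overlap for 4 of the 10 genes, against 29.7% of all genes. The median log2 fold change of the 10 genes was 0.38, against -0.03 for all genes.

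Nqo1 had 44.8, 40.9, 54.3 and 48.2 RPKM in the Ad-LacZ + JNK Inh libraries of F1, M1, M2 and F2 and 12.1, 12.7, 10.4 and 11.8 RPKM in the Ad-Cre + JNK Inh libraries. The fall left the 4 Ad-Cre + JNK Inh values within an SD of 0.974 RPKM. The log2 fold change was -1.78 (SE 0.13, limma's adjusted p = 0.000154). Hmox1 rose from 40.6, 70.4, 129.9 and 92.9 RPKM to 146, 143, 229 and 188 RPKM. All 4 libraries of the second group were above the first, and the log2 fold change was 1.30 (SE 0.26, limma's adjusted p = 0.00977). Its adjusted p was 0.0749 without replicate M1, 0.0766 without replicate F2 and 0.0827 with quantile normalization.

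Prdx1 rose from 61.0, 68.8, 98.5 and 85.7 RPKM to 129, 146, 128 and 162 RPKM, a log2 fold change of 0.99 (SE 0.14, limma's adjusted p = 0.0023, or 0.0526 when F2 was left out). The groups did not overlap, and the difference was smallest in M2. Sod2 was at 22.9, 21.6, 22.9 and 23.1 RPKM with Ad-LacZ + JNK Inh and at 27.7, 28.7, 25.7 and 27.2 RPKM with Ad-Cre + JNK Inh. It was higher in all 4 preparations without overlap, with a log2 fold change of 0.39 (SE 0.13), a limma adjusted p of 0.0663, or 0.0441 in the blocked fit. The other genes were not called in either fit: the log2 fold changes were 0.48 for Gclc, 0.14 for Gclm, 0.49 for Srxn1, 0.25 for Txnrd1 and 0.36 for Mt2. Mt1 had a negative value, -0.28 (SE 0.20, limma's adjusted p = 0.349), and was lower in 3 of the 4 preparations and higher in M2.

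Markers of cell types also differed in this comparison. Of the 9 beta cell markers 8 had negative values (median -0.85) and 4 were called lower, or 6 lower and 1 higher in the blocked fit. The PP cell marker Ppy was called higher (log2 fold change 0.92, limma's adjusted p = 0.0263). All 5 alpha cell markers had positive values (median 0.55) with 0 called, or 2 in the blocked fit, and all 3 delta cell markers did too (median 0.85), again with 0 called, or 2 in the blocked fit. All 6 stellate and fibroblast markers tested had negative values (median -1.20), and 0 were called, or 4 lower in the blocked fit. Duct markers summed to 436 to 962 RPKM with Ad-LacZ + JNK Inh and to 288, 301, 401.2 and 350 RPKM in F1, M1, M2 and F2 with Ad-Cre + JNK Inh. Spp1 made up the largest part, with means of 571 and 206 RPKM. Of the 3 duct markers tested 1 was called higher and 1 lower in either fit (median -0.01). Macrophage markers summed to 131 to 310.3 and to 169 to 291 RPKM, with a median log2 fold change of 0.02 and 0 of 7 called in either fit. The part of these shifts in the values of the 10 genes was not tested.

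**Figure D3:**
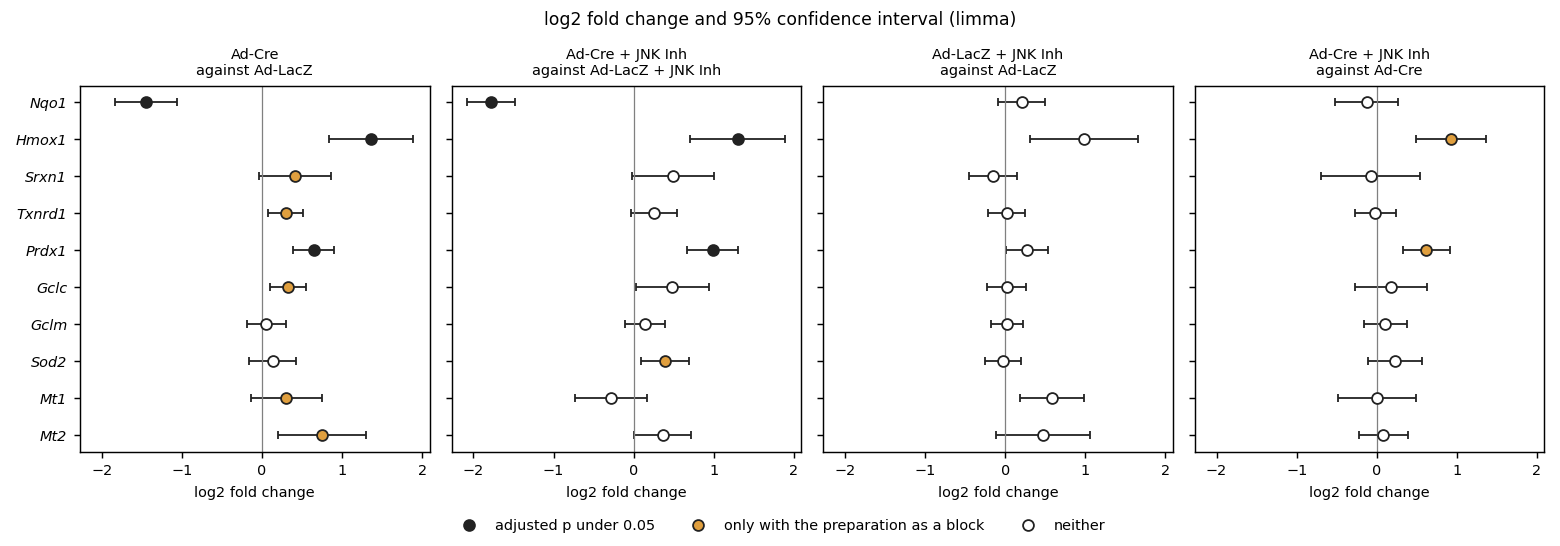
log2 fold change (horizontal axis) of the 10 genes in the 4 pairwise comparisons, with 95% confidence intervals from limma (n = 4 against 4). Black points passed an adjusted p under 0.05, orange points passed it only with the preparation as a block, and white points in neither fit. Nqo1 is at -1.45 and -1.78 and Hmox1 at 1.36 and 1.30 in the 2 comparisons of virus, while in the 2 comparisons of inhibitor Hmox1 is at 0.98 and 0.92 and Nqo1 at 0.21 and -0.13.

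Comparing Ad-Cre + JNK Inh with Ad-Cre asks what the inhibitor changes in the Ad-Cre cells. These comparisons of inhibitor reuse the Ad-Cre and Ad-LacZ libraries of the comparisons above. By limma's adjusted p 0 of the 10 genes were called, and 0% of 11503 genes in all. At an unadjusted p under 0.05 there were 954 genes in all and 2 of the 10, Hmox1 and Prdx1. Both were called with the preparation as a block, against 6.55% of all genes, and at an unadjusted p under 0.05 with the study's fold change for the inhibitor, above 1.2, against 7.99%. The groups also did not overlap for these 2 of the 10 genes, against 11.5% of all genes.

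Hmox1 went from 87.2, 72.1, 135 and 123 RPKM with Ad-Cre to 146, 143, 229 and 188 RPKM with Ad-Cre + JNK Inh. The change was in the same direction as that of the virus and alike in each preparation, with log2 fold changes of 0.83, 1.07, 1.03 and 0.77. The log2 fold change of 0.92 (SE 0.19) had a limma adjusted p of 0.238, or 0.0134 in the blocked fit. Prdx1 had a log2 fold change of 0.61 (SE 0.13, limma's adjusted p = 0.238, or 0.0265 in the blocked fit), and was higher in all 4 preparations. Nqo1 had a log2 fold change of -0.13 (95% confidence interval -0.52 to 0.26). For Gclc, Gclm, Srxn1, Txnrd1, Sod2, Mt1 and Mt2 it lay between -0.08 and 0.23.

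The macrophage markers went from 66.5, 87.0, 203 and 172 RPKM in sum with Ad-Cre to 191, 169, 291 and 238 RPKM with Ad-Cre + JNK Inh, higher in all 4 preparations as Hmox1 was. Of the 7 tested, 3 had positive values (median -0.12) and 0 were called, or 1 in the blocked fit, Lyz2 (log2 fold change 1.45, adjusted p = 0.0193 from limma in that fit). All 5 alpha cell markers (median 0.47) and all 3 delta cell markers (median 0.85) had positive values, with 0 called, or 1 of each in the blocked fit. The part of these cells in the Hmox1 and Prdx1 values was not tested.

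Gclc and Mt1 in this comparison turned on preparation M2. Gclc went from 21.5 to 32.2 RPKM in M2 and from 19.9 to 16.3 RPKM in F1. Mt1 went from 50.5 to 69.9 RPKM in M2 and from 59.1 to 40.6 RPKM in F1. Without replicate M2, the log2 fold change of Gclc was -0.04 in place of 0.18 and that of Mt1 was -0.24 in place of 0.00.

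Comparing Ad-LacZ + JNK Inh with Ad-LacZ gives the background of the inhibitor in control cells. By limma's adjusted p 0 of the 10 genes were called, against 0.197% of 11657 genes, and likewise 0 with the preparation as a block, against 0.395%. At an unadjusted p under 0.05 there were 699 genes in all and 3 of the 10, Hmox1, Prdx1 and Mt1. The same 3 passed that p with a fold change above 1.2, against 4.77% of all genes. The groups did not overlap for 1 of the 10, Mt1, against 4.84% of all genes.

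Mt1 had 61.9, 63.7, 72.0 and 55.2 RPKM with Ad-LacZ + JNK Inh, each as deposited above the highest Ad-LacZ value of 50.5 RPKM. On the scaled values the groups overlapped (exact two-sided permutation p = 0.0571). Its log2 fold change was 0.58 (SE 0.18, limma's adjusted p = 0.46), the largest for Mt1 in any of the 4 pairwise comparisons. Mt2 had 49.3, 82.5, 92.5 and 82.1 RPKM, below its Ad-LacZ value in F1 and above it in the other 3 preparations. Its log2 fold change was 0.47 (SE 0.26, limma's adjusted p = 0.945). Hmox1 had a log2 fold change of 0.98 (SE 0.30, limma's adjusted p = 0.469, or 0.0552 in the blocked fit), and was higher in 4 of 4 preparations. Prdx1 had 0.27 (SE 0.11, limma's adjusted p = 0.81) and Nqo1 0.21 (SE 0.13, limma's adjusted p = 0.999).

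The summed macrophage markers were also above Ad-LacZ in every preparation. They summed to 67.5, 77.3, 70.4 and 76.2 RPKM with Ad-LacZ in F1, M1, M2 and F2 and to 131, 186, 303 and 310.3 RPKM with Ad-LacZ + JNK Inh. All 7 markers tested had positive values (median 0.69), and Lyz2 (log2 fold change 2.17, limma's adjusted p = 0.0367, or 0.0513 in the blocked fit) and Cd68 (1.22, limma's adjusted p = 0.0172) were called. Stellate and fibroblast markers summed to 23.6 to 108 RPKM with Ad-LacZ and to 43.8 to 512 RPKM with Ad-LacZ + JNK Inh, higher in every preparation. All 4 tested had positive values (median 1.83), and 0 were called, or 1 in the blocked fit. With Ad-Cre + JNK Inh they summed to 26.3 to 148 RPKM. Duct markers summed to 436 to 962 RPKM with Ad-LacZ + JNK Inh, above the 190 to 324 RPKM with Ad-LacZ. The largest part was Spp1, with a mean of 161 RPKM with Ad-LacZ and 571 RPKM with Ad-LacZ + JNK Inh. Krt7 went from 44.5 to 52.8 RPKM and Epcam from 52.7 to 50.4 RPKM. Of the 4 duct markers tested 3 had positive values (median 0.33), and 0 were called, or 1 in the blocked fit. Beta cell markers summed to 51906 to 84724 RPKM with Ad-LacZ and to 35993 to 61318.5 RPKM with Ad-LacZ + JNK Inh, lower in every preparation. The largest parts were Ins2 (means of 35446 and 23647 RPKM) and Ins1 (27794 and 18131 RPKM). Of the 9 beta cell markers 4 had positive values (median -0.09), and 0 were called in either fit. The part of these cells in the Hmox1 and Mt1 values of the inhibitor groups was not tested.

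Whether the virus effect differed with the inhibitor was tested as an interaction over all 16 libraries. By limma 0 of the 10 genes passed the adjusted p, with or without the block, and 0% of 12274 genes in all, while 409 genes had an unadjusted p under 0.05. Prdx1 was the 1 member among them, with a difference of log2 fold changes of 0.36 (SE 0.16, limma's adjusted p = 1). It was positive in 3 of 4 preparations. Mt1 had -0.57 (SE 0.29, limma's adjusted p = 1), negative in all 4 preparations, and Mt2 had -0.38 (SE 0.30, limma's adjusted p = 1), also negative in all 4. For Nqo1 the difference was -0.32 (95% confidence interval -0.79 to 0.14), and for Hmox1 -0.05 (-0.83 to 0.74).

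The machinery around NRF2 was taken from a list of 10 regulators. In Ad-Cre against Ad-LacZ, 2 were called higher and 1 lower, or 4 and 1 in the blocked fit. Over all genes tested 7.29% were called higher and 9.58% lower, or 15.7% and 18.7% in the blocked fit. Sqstm1, the gene for p62, rose from 200, 203, 222 and 157 RPKM to 632, 544, 593 and 653 RPKM, a log2 fold change of 1.63 (SE 0.15, limma's adjusted p = 0.00111). Mafk, which encodes a small MAF partner, rose by 0.85 on the log2 scale (SE 0.11, limma's adjusted p = 0.00314). Cul3 fell from 48.4, 50.7, 47.6 and 60.1 RPKM to 20.3, 29.5, 30.7 and 28.2 RPKM, a log2 fold change of -0.92 (SE 0.15, limma's adjusted p = 0.00593). The transcript of NRF2 itself, Nfe2l2, was at 18.1 ± 3.04 and 20.9 ± 3.63 RPKM (SD, n = 4 each) with a log2 fold change of 0.19 (limma's adjusted p = 0.343), and Keap1 had -0.07 (limma's adjusted p = 0.819). With the inhibitor the same 3 regulators were called between Ad-Cre and Ad-LacZ: Sqstm1 at 2.06, Mafk at 1.16 and Cul3 at -0.96 (limma's adjusted p = 0.000417, 0.000674 and 0.0276). For Cul3 limma's adjusted p was 0.0532 with the preparation as a block. That fit called 3 regulators higher and 0 lower, beside 12.7% and 12.1% of all genes.

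Of 15 other NRF2 targets tested in Ad-Cre against Ad-LacZ, 3 were called higher and 1 lower, beside 7.29% and 9.58% of all genes, or 5 and 2 in the blocked fit. In this list 13 had positive values, and the median log2 fold change was 0.24. Pgd (0.94), of the pentose phosphate pathway, Osgin1 (0.79) and thioredoxin itself, Txn1 (0.54), rose, and the malic enzyme Me1 (-0.42) fell. With the inhibitor 5 were higher and 1 lower in either fit (median 0.39), led by the glutathione transferase Gstp1 (log2 fold change 1.68, limma's adjusted p = 0.007). The shares of all genes were 10.1% and 10.5%, or 12.7% and 12.1% in the blocked fit. Without the inhibitor Gstp1 had 1.25 (limma's adjusted p = 0.0605, or 0.00454 in the blocked fit). Among genes of glutathione supply and use, 1 of 7 was called, glutathione synthetase Gss (0.57), with a median of 0.17, or 1 higher and 1 lower in the blocked fit. With the inhibitor Gss was called higher (0.60) and Cth, which makes cysteine, lower (-0.60), 2 of 8. The blocked fit called 1 higher and 2 lower there.

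The remaining peroxide and superoxide enzymes had the highest median of the 9 pathway lists in both comparisons of virus. All 13 had positive values in Ad-Cre against Ad-LacZ (median 0.52), but 1 was called, Prdx5 (0.53), and 9 with the preparation as a block. With the inhibitor 6 of 13 were called, or 7 in the blocked fit, all higher (median 0.67). The shares of all genes called higher were 10.1% and 12.7%. Among the 6 were Gpx1 (1.11), Sod1 (1.04), Prdx6 (0.86) and Prdx2 (0.81). In the interaction 0 of the 13 passed the adjusted p in either fit. The thioredoxin and glutaredoxin list had 1 higher and 1 lower of 9 (median 0.14): the methionine sulfoxide reductase Msrb1 (0.70) and the glutaredoxin Glrx (-0.73), or 3 higher and 1 lower in the blocked fit. With the inhibitor it had 2 higher and 1 lower in either fit (median 0.29).

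Zinc and metal handling genes had 2 higher and 1 lower of 11 (median 0.29), or 4 and 3 in the blocked fit. The shares of all genes were 7.29% higher and 9.58% lower, or 15.7% and 18.7% in the blocked fit. The zinc transporters Slc30a5 (0.50) and Slc39a14 (0.48) rose and Slc39a10 (-0.39) fell. Mtf1, for the factor that drives metallothioneins, was not called (-0.17, limma's adjusted p = 0.405). The beta cell zinc transporter Slc30a8 had -0.91 (limma's adjusted p = 0.0533, or 0.00392 in the blocked fit). With the inhibitor 2 were higher and 1 lower of 11 (median 0.31), or 2 and 2 in the blocked fit. In the heme and iron list 2 were called higher and 1 lower of 9 (median 0.09), or 2 and 2 in the blocked fit. The ferritin chains Ftl1 (1.07) and Fth1 (0.55), which store the iron that heme oxygenase frees, were higher and the iron exporter Slc40a1 (-0.62) lower. With the inhibitor 2 were higher and 3 lower in either fit (median -0.01).

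Lists for 2 other inputs to these genes were read in the same way. Over all genes tested, 7.29% were called higher and 9.58% lower between Ad-Cre and Ad-LacZ, or 10.1% and 10.5% with the inhibitor. Of the NF-kB targets 0 of 8 were called between Ad-Cre and Ad-LacZ, 2 with the preparation as a block (median 0.22), and with the inhibitor Nfkb1 was lower (-0.38), 1 of 10, or 1 higher and 2 lower in the blocked fit. Of the glucocorticoid response genes the receptor Nr3c1 was called lower (-0.49), 1 of 7 (median -0.04), and with the inhibitor Nr3c1 (-0.67) and Tsc22d3 (-0.36) were lower, Tsc22d3 with an adjusted p from limma of 0.0338, or 0.0511 in the blocked fit. For the inhibitor in Ad-Cre no gene of these 9 lists passed limma's adjusted p, and in Ad-LacZ 1 did, the transferrin receptor Tfrc (0.84, limma's adjusted p = 0.0362, or 0.05004 and not called in the blocked fit). In the blocked fit 10 genes of the lists were called for the inhibitor in Ad-Cre, 7 higher and 3 lower, beside 6.55% of all genes. Among them were Sqstm1 (0.56), Sod1 (0.67) and Ftl1 (0.72) higher and Bach1 (-0.46) and Txnip (-0.89) lower. In Ad-LacZ that fit called 1, Txnip (-1.03) lower, beside 0.395% of all genes.

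**Figure D4:**
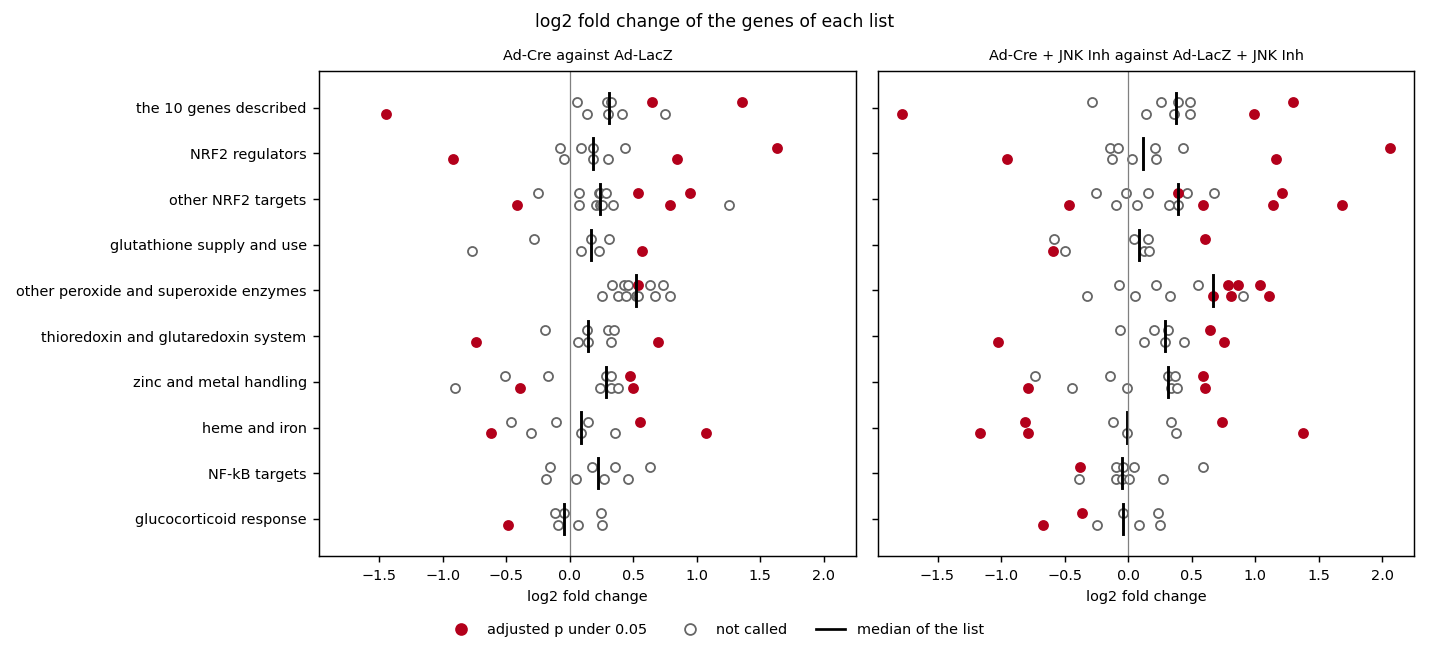
log2 fold change (horizontal axis) of each tested gene in the 10 genes described and in 9 lists of related genes, for Ad-Cre against Ad-LacZ (left) and the same with the inhibitor (right). Red points passed limma's adjusted p under 0.05, open points did not, and the black bar is the median of the list. The 10 genes have medians of 0.31 and 0.38, with Nqo1 far to the left, and the other peroxide and superoxide enzymes have the highest medians, 0.52 and 0.67.

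The genes whose pattern was most like that of each member were read from the Pearson correlation of log2 values over the 16 libraries after removing the mean of each preparation, among 12273 other genes. The libraries share their virus and inhibitor groups, so any gene that differs strongly between groups scores high. For Nqo1 they were Ica1l (r = 0.995), Lrrtm2 (r = 0.989) and Sepsecs (r = 0.989). For Hmox1 they were Ctsd (r = 0.982), Npc2 (r = 0.973) and Gla (r = 0.969), which encode lysosomal proteins. For Prdx1 they were Gm21399 (r = 0.986), which shares 168 of the 50-base windows of Prdx1, Pcna (r = 0.980) and Fastkd3 (r = 0.977). The values were lower for Mt1, whose nearest gene was Sema6d (r = 0.896), and for Mt2, whose nearest gene was Pnpla7 (r = 0.900). The nearest gene was Nefh for Gclc (r = 0.942), Irx2 for Gclm (r = 0.955), C2cd2l for Srxn1 (r = 0.982), Cyb5d1 for Txnrd1 (r = 0.936) and Eloa for Sod2 (r = 0.957).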

How the data were processed

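RNA of 16 cultures of dispersed islet cells was sequenced as poly(A) libraries, 1 culture for each of 4 preparations in each of 4 groups, and libraries were assigned by their labels. RPKM values were deposited by the authors, who mapped paired reads to mouse; the submitters' processing notes name GRCm38, and the counter, the annotation and the step to RPKM are not given in the sources used here. Another 3 columns of values that no label names were not used. Positions and shared 50-base windows are from GENCODE M21, and promoters from RefSeq.

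RPKM values are not counts. They were scaled by unweighted TMM factors (trimming 30% of the ratios and 5% of the levels), log2 values were taken after adding a pseudocount of 1, and genes that exceeded 1 RPKM in 4 or more of the libraries compared were fitted with limma 3.58.1 (trended eBayes) in R 4.3.3, without a block, over the 8 libraries compared or all 16 for the interaction. Changes of low genes are understated on this scale. P-values were Benjamini-Hochberg adjusted over all genes tested and called under 0.05. Depth came from low values times gene length (Python 3.11.15), of which 93.5% to 95.0% lay within 0.05 of a whole read. Single genes had an exact two-sided permutation test on the scaled values, and overlap was judged on the deposited ones. The permutation shuffled the 8 libraries freely, so it ignores the pairing by preparation. Standard errors and confidence intervals are likewise from the fit without a block.

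Libraries of 1 preparation are parallel cultures of the same animals, so the preparations pair them; residuals of same-labeled libraries correlated at 0.131 to 0.826 in the 4 pairwise comparisons, and of others at a mean of -0.230 to -0.129. The text names the 10 genes in all comparisons, the called genes with the largest changes of each list, any NRF2 regulator, and the 3 genes most like a member. Mtf1 and Slc30a8 fall outside this rule and were picked with their values known. Single cell type markers, such as Adgre1, C1qa, Krt7 and Epcam, also fall outside it and were picked in the same way. The genes and lists were chosen with earlier results of these data known, and the lists were written from general knowledge. The alternatives were another pseudocount, filter, scaling, variance model, call rule, a fit of all libraries, the block, and each replicate left out. The procedure was tested on simulated libraries drawn independently, with equal depth and no effect of preparation or cell type. That test does not cover these features of the real libraries.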

Additional observations from a re-analysis of the deposited data

Results flagged for a closer look

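In the 40 sets of 4 libraries (10 genes in 4 groups), 2 had a library far from the other 3 relative to the range of the set. Chance flags about 1 in 20 such sets, so this number is what chance gives. Mt1 in the Ad-Cre + JNK Inh library of M2 was at 69.9 RPKM, while the other 3 libraries of that group were at 40.2 to 42.7 RPKM. Sod2 in the Ad-LacZ + JNK Inh library of M1 was at 21.6 RPKM, below the other 3 libraries at 22.9 to 23.1 RPKM.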

How the results depend on the processing

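Of 620 alternative values, 575 kept their direction and their side of the threshold, 15 gained a call, 7 lost one and 23 changed sign; the 23 are fold changes that were not called in the fit reported. In Ad-Cre against Ad-LacZ, 3 of the 10 genes were called, 8 with the preparation as a block (1955 and 3990 over all genes), and 1 to 3 with a replicate left out, the lowest without F2, where calls over all genes went from 1955 to 198. In Ad-Cre + JNK Inh against Ad-LacZ + JNK Inh, 3 were called, 5 with all 16 libraries in one fit (2393 and 3546 over all genes), and 1 to 4 with a replicate left out, the lowest without F2. For the inhibitor in Ad-Cre, 0 were called, 2 with the preparation as a block, 1 with all 16 libraries in one fit (0, 753 and 58 over all genes) and 2 at the study's thresholds with the p unadjusted. For the inhibitor in Ad-LacZ, 0 were called and 3 at the study's thresholds. The block changed no other count over the 10 genes by more than 1.5 times; its calls in the other lists stand beside them.

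Sign changes were as follows, for log2 fold changes. For the inhibitor in Ad-Cre, values as deposited gave -0.0365 for Gclm, -0.15 for Mt1 and -0.0701 for Mt2, while the median over all genes tested was -0.14 in place of -0.01. Quantile normalization gave -0.13 for Mt1 and -0.17 for Mt2, and a pseudocount of 0.1 gave -5.12e-06 for Mt1. Values as deposited also gave a median over all genes of -0.14 in place of -0.03 in Ad-Cre + JNK Inh against Ad-LacZ + JNK Inh, with the same number of calls. Leaving out a replicate for the inhibitor in Ad-Cre, Gclc ranged from -0.037 to 0.30, Mt1 from -0.24 to 0.14, Mt2 from -0.0152 to 0.16 and Txnrd1 from -0.0569 to 0.0196. For the inhibitor in Ad-LacZ, quantile normalization gave -0.0031 for Gclc and -0.0242 for Txnrd1, and with a replicate left out Gclc ranged from -0.0911 to 0.0951, Txnrd1 from -0.0227 to 0.048 and Sod2 from -0.101 to 0.0183. In the interaction, values as deposited (median over all genes -0.12 in place of 0.01) gave -0.0419 for Gclm and -0.0594 for Srxn1, quantile normalization gave -0.016 for Srxn1, and with a replicate left out Gclc ranged from -0.0172 to 0.41 and Hmox1 from -0.11 to 0.14. The cause of these changes was not tested.

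The shallowest library, Ad-Cre + JNK Inh of F2, changed no count of calls among the 10 genes when it alone was left out, while calls over all genes went from 2393 to 1440. With 4 libraries a group, small differences such as those of Gclm could not be separated from 0.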
